A study of Mus musculus with 7 samples.

Results

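The 10 genes described here, Clock, Arntl (also called Bmal1), Per1, Per2, Per3, Cry1, Cry2, Nr1d1, Nr1d2 and Dbp, form the core of the circadian clock and its best-known output branch. They were read from all probe sets of the Affymetrix Mouse 430 2.0 array that the platform annotation assigns to exactly 1 of these symbols, which gave 23 of 45101 probe sets and 10 of 18193 named genes. The series compared carotid arteries of mice from reciprocal crosses, 7 arrays in all. An ApoE-/- hypercholesterolemic mother and a wild-type father gave 4 samples (ApoE-null mother), and a normocholesterolemic wild-type mother and an ApoE-/- father gave the other 3 (wild-type mother). Every offspring was ApoE-/+, so both groups carried 1 null allele of the gene for apolipoprotein E, a ligand for lipoprotein clearance, and mother and father cannot be told apart as the source of a difference. The study asked about susceptibility of such offspring to atherosclerosis. Age, sex, hour of dissection and light cycle are not given in the labels used here, nor is it stated whether arrays stand for separate animals, so p-values measure only the spread between these arrays.

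In mammals the clock is a transcriptional feedback loop. CLOCK, or its relative NPAS2, pairs with ARNTL and binds E-box elements in the genes of the PER and CRY proteins, which then repress that pair. The same pair drives Nr1d1 and Nr1d2, encoding the REV-ERB receptors that repress Arntl through ROR elements, and Dbp, encoding an activator that binds D-box elements. In most peripheral tissues, the artery wall among them, transcripts of Arntl and Npas2 peak in opposite phase to those of Dbp, the REV-ERB genes and most Per genes.

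Promoter windows in RefSeq (build GRCm38.p6, 250 bases before to 50 after a start) were found for 9 of the 10 members. They were searched on both strands for an E-box (CACGTG), a D-box (TTATGTAA) and a ROR element (TAGGTCA), 3 motifs that do not overlap one another in the stretches shown. An E-box stood in 7.15% of all 32851 windows, the D-box in 0.938% and the ROR element in 2.61%. Among members, 2 had an E-box (Per1 and Cry1), 1 the D-box (Per3) and 1 the ROR element (Arntl). The Per3 window held 2 D-boxes, as did 0.0213% of windows, and that of Ciart, a repressor of CLOCK and ARNTL from the wider clock list below, held 3 E-boxes, as did 0.0883%. Tef and Nfil3, which encode an activator and a repressor acting at D-boxes, had an E-box and a ROR element. The stretches below are from genes that shared the order of arrays described below, and from Cry1 and Per1, the members with an E-box. Among them the correlations of Cry1, Per1, Per3 and Tef with Arntl did not pass after adjustment. Capitals mark the motif. The windows of Dbp, Nr1d2, Cry2 and Npas2, and of Hlf from the wider clock list, held none of the 3 motifs. These genes also ran with or against Arntl over the arrays. Sites outside the windows and other spellings of a motif were not searched. A match is a description of the letters only.
Per3 (chr4:151044708-151044915, minus strand, promoter): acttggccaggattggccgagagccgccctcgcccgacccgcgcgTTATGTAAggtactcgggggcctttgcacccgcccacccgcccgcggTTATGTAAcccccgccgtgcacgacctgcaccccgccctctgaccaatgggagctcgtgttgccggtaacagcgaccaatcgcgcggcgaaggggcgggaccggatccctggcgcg
Ciart (chr3:95882258-95882478, minus strand, promoter): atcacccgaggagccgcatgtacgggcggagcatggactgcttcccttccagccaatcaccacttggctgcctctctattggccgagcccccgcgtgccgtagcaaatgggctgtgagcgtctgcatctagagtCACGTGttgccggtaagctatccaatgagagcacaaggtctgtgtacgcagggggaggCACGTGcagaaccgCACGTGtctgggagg
Tef (chr15:81802423-81802672, plus strand, promoter): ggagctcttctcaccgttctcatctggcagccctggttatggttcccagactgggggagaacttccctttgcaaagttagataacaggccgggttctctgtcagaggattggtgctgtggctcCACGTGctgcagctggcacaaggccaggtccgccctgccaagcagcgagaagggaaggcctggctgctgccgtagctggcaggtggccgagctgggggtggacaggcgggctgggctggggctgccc
Cry1 (chr10:85185055-85185304, minus strand, promoter): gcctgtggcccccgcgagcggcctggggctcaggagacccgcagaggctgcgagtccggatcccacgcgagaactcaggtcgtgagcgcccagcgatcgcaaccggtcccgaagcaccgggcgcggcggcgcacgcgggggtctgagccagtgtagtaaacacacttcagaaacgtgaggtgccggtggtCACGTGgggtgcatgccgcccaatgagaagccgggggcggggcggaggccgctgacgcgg
Per1 (chr11:69098771-69098800, plus strand, 30 bases around the E-box): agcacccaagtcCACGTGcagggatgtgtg
Arntl (chr7:113207530-113207559, plus strand, 30 bases just after a start): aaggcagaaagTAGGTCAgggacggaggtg
Nfil3 (chr13:52981033-52981062, minus strand, 30 bases across a start, motif on the other strand): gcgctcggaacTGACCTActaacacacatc

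Each value is a MAS5 signal on a linear scale, and levels of different probe sets cannot be set against each other. All 10 genes had at least 1 probe set over the filter on low signals (a mean over 23.6), and 19 of the 23 probe sets passed it, each of them above the highest of 27 probe sets for bacterial transcripts on all 7 arrays. The other 4, 1 each for Per2 and Nr1d2 and 2 for Per3, exceeded those bacterial probe sets on at most 1 array and were not tested. Of artery markers, 10 of 10 smooth muscle and 10 of 10 endothelial genes were above the bacterial probe sets on every array, with Acta2 at 9491.8 to 13536.0, Myh11 at 4449.5 to 6050.5, Cdh5 at 185.2 to 358.0 and Pecam1 at 84.3 to 238.7. Other tissue was present as well, since Ucp1 of brown fat was at 420.1 to 5059.5 and Th of glomus and ganglion cells at 27.1 to 687.5. The array of wild-type mother 2 stood apart, with a Xist signal of 41.2 where the others had 5174.1 to 5930.9, and with a summed signal of 2810.8 for 11 skeletal muscle genes where the others had 168.0 to 425.0. It also had the highest ratio of the 3 prime to the 5 prime end of Gapdh, a guide to RNA integrity, at 7.80 against 5.03 to 6.56. The share of probe sets above the bacterial ones was lowest there, at 61.9% against 64.0% to 74.7%. Some results are therefore also given without this array. In such bulk tissue fewer cells of a type and less RNA per cell cannot be told apart.

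No clock gene passed the test between the crosses, but several varied widely from array to array inside each group, and they varied together. On arrays with a high Arntl signal, Dbp, Per2, Per3, Cry2 and Nr1d2 were low, and on arrays with a low Arntl signal they were high. Both kinds of array occurred in both groups. The plot of signals by array shows this for all 10 genes.

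**Figure D1:**
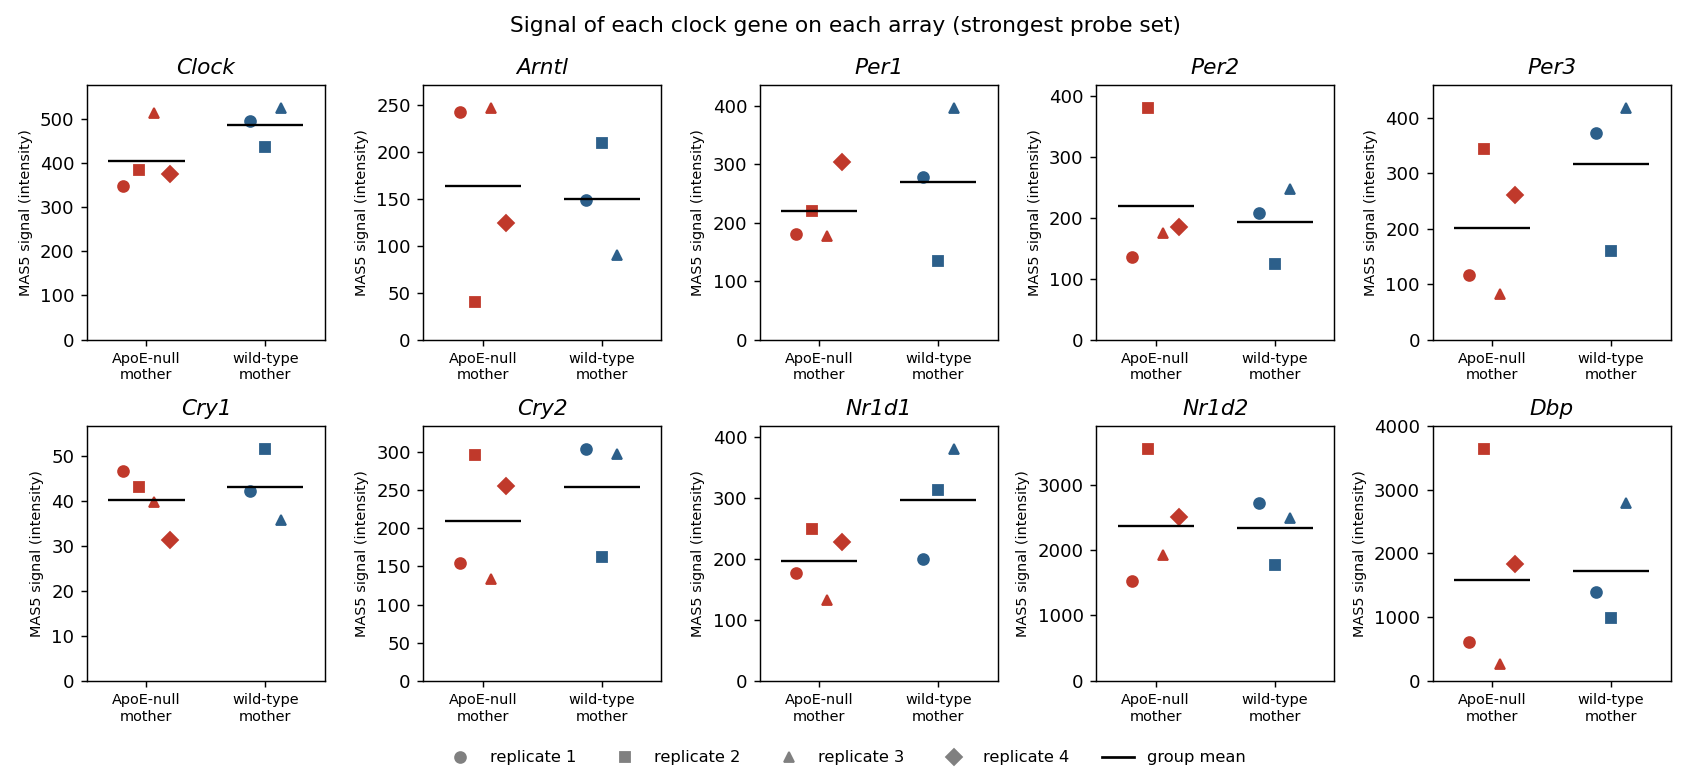
Signal of the strongest probe set of each clock gene (y axis, linear MAS5 intensity from 0) for the 4 ApoE-null mother arrays (red, left) and the 3 wild-type mother arrays (blue, right), with marker shapes for replicates and a line for the group mean. The groups overlap for all 10 genes, and within the ApoE-null mother group replicates 1 and 3 lie opposite to replicate 2 for Arntl and Dbp.

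Arntl, the partner of CLOCK, had signals of 243.0, 39.6, 246.9 and 124.6 in the ApoE-null mother group, against 148.7, 210.0 and 90 in the wild-type mother group. The highest and the lowest array of the series both had an ApoE-null mother, a 6.24-fold range in that group, against 2.33-fold in the wild-type mother group, which lay inside it. The mean was 164 ± 100 (SD, n = 4) in the ApoE-null mother group and 150 ± 60.0 (SD, n = 3) in the wild-type mother group, a log2 difference of -0.10 ± 0.54 (SE; limma, adjusted p = 0.970). A weaker Arntl probe set, 1457740_at, ran from 30.7 to 108.1 with an ApoE-null mother and from 31.7 to 62.3 with a wild-type mother. Its log2 difference was 0.20, of the opposite sign to that of the stronger one and also without a call (limma, adjusted p = 0.924).

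Clock, which encodes the partner of ARNTL in the activating pair, was read by 4 probe sets. Its strongest probe set had 349.2, 384.6, 513.1 and 375.7 with an ApoE-null mother, against 495.1, 437.1 and 524.9 with a wild-type mother, a log2 difference of -0.27 ± 0.17 (SE; limma, adjusted p = 0.689). The highest array was 1.5-fold above the lowest for that probe set and 1.67-fold to 1.92-fold for the others. The other 3 Clock probe sets had log2 differences of -0.31 to -0.03. The 4 probe sets did not follow the same order of arrays: Pearson's r with Arntl over the 7 arrays was 0.11 for the strongest and 0.51 to 0.77 for the others.

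Dbp varied most of the 10. Its strongest probe set, 1438211_s_at, had signals of 603.6, 3636.4, 261.9 and 1835.8 with an ApoE-null mother, against 1388.1, 983.1 and 2789.5 with a wild-type mother. Replicates 2 and 3 of the ApoE-null mother group were 13.9-fold apart, while the wild-type mother arrays spanned 2.84-fold and lay between them. The mean was 1584 ± 1526 with an ApoE-null mother (SD, n = 4) and 1720 ± 948 with a wild-type mother (SD, n = 3), and the log2 difference of -0.62 had an interval of -2.19 to 0.95 (limma, adjusted p = 0.839). The other Dbp probe set, at 78.0, 462.3, 57.9 and 276.3 with an ApoE-null mother and 241.7, 111.9 and 536.8 with a wild-type mother, gave nearly the same difference (-0.64). Without ApoE-null mother 3 the difference of the strongest probe set was 0.028. A suffix of s marks a probe set that may match more than 1 transcript.

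Among the Per genes, which encode repressors of CLOCK and ARNTL, Per3 had the largest difference between the crosses. Its signals were 116.5, 343.5, 82.2 and 259.9 with an ApoE-null mother, against 371.3, 159.1 and 417.1 with a wild-type mother. The 2 lowest arrays had an ApoE-null mother and the 2 highest a wild-type mother, but the groups overlapped. The log2 difference was -0.76 with an interval of -1.79 to 0.27 (limma, adjusted p = 0.691), and -1.19 without wild-type mother 2. Its other 3 probe sets over the filter had differences of -0.72 to -0.50.

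Per2 had signals of 135.6, 379.4, 175.3 and 184.7 with an ApoE-null mother, against 207.4, 124.6 and 246.6 with a wild-type mother. The array of ApoE-null mother 2 was the highest and that of wild-type mother 2 the lowest. The log2 difference was 0.12 ± 0.33 (SE; limma, adjusted p = 0.942) and -0.37 for the other kept probe set of Per2, so the probe sets differed in sign. Without wild-type mother 2 the first was -0.16. Per1, which also answers quickly to glucocorticoids and to other stimuli, had 181.5, 220.3, 177.1 and 304.1 with an ApoE-null mother, against 278.6, 134.5 and 396.4 with a wild-type mother. Both its extremes were wild-type mother arrays, and the log2 difference was -0.19 ± 0.32 (SE; limma, adjusted p = 0.896). That of Per1 was -0.62 without wild-type mother 2.

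The cryptochromes are the partners of the PER proteins in repression, and the highest array was 2.27-fold over the lowest for Cry2 and 1.65-fold for Cry1. Cry2 had 154.6, 295.5, 133.5 and 255.7 with an ApoE-null mother, against 303.5, 161.8 and 297.7 with a wild-type mother, so its arrays fell into a low set of 3 and a high set of 4 that each held both crosses. Cry1 stayed within 31.2 to 46.5 in the ApoE-null mother group, against 35.6 to 51.4 in the wild-type mother group, and the groups overlapped. The log2 difference was -0.30 for Cry2 and -0.10 for Cry1 (limma, adjusted p = 0.817 and 0.942).

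Of the REV-ERB genes, Nr1d1 came closest to a difference. Its signals were 176.5, 248.9, 132.4 and 227.8 with an ApoE-null mother, against 200.1, 312.9 and 380.5 with a wild-type mother. The 2 highest arrays had a wild-type mother, while wild-type mother 1 lay inside the other group. The mean was 196 ± 52.4 with an ApoE-null mother (SD, n = 4) and 298 ± 91.1 with a wild-type mother (SD, n = 3), and the log2 difference of -0.59 had an interval of -1.16 to -0.01 (limma, unadjusted p = 0.0457, adjusted p = 0.602). Nr1d2 had 1531.1, 3542.3, 1921.7 and 2504.4 with an ApoE-null mother, against 2723.6, 1776.8 and 2496.1 with a wild-type mother, with a log2 difference of -0.02 ± 0.25 (SE; limma, adjusted p = 0.987).

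Over all 19 kept probe sets of the clock genes, 0 passed the test between the crosses at an adjusted p of 0.05, as against 0.0037% of all 27027 probe sets tested (1, for a gene that is no member). At an unadjusted p under 0.05 the count was 1 of 19 in limma (Nr1d1), against 8.25% of all probe sets, and the groups overlapped for all 19, where 8.02% of all probe sets did not overlap. Signs were less even. Of the 19 probe sets 17 had a negative log2 difference, against 50.6% of all probe sets, and the median was -0.30, against -0.0041 over all. Probe sets of 1 gene share their RNA, and these genes also varied together over arrays, so the 17 are not separate observations. Intervals of 18 of the 19 included 0, with standard errors from 0.17 for Clock to 0.72 for Dbp. For Arntl (1425099_a_at) and Nr1d2 the mean linear signal was higher with an ApoE-null mother while the log2 difference was negative, so these have no direction that holds on both scales.

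**Figure D2:**
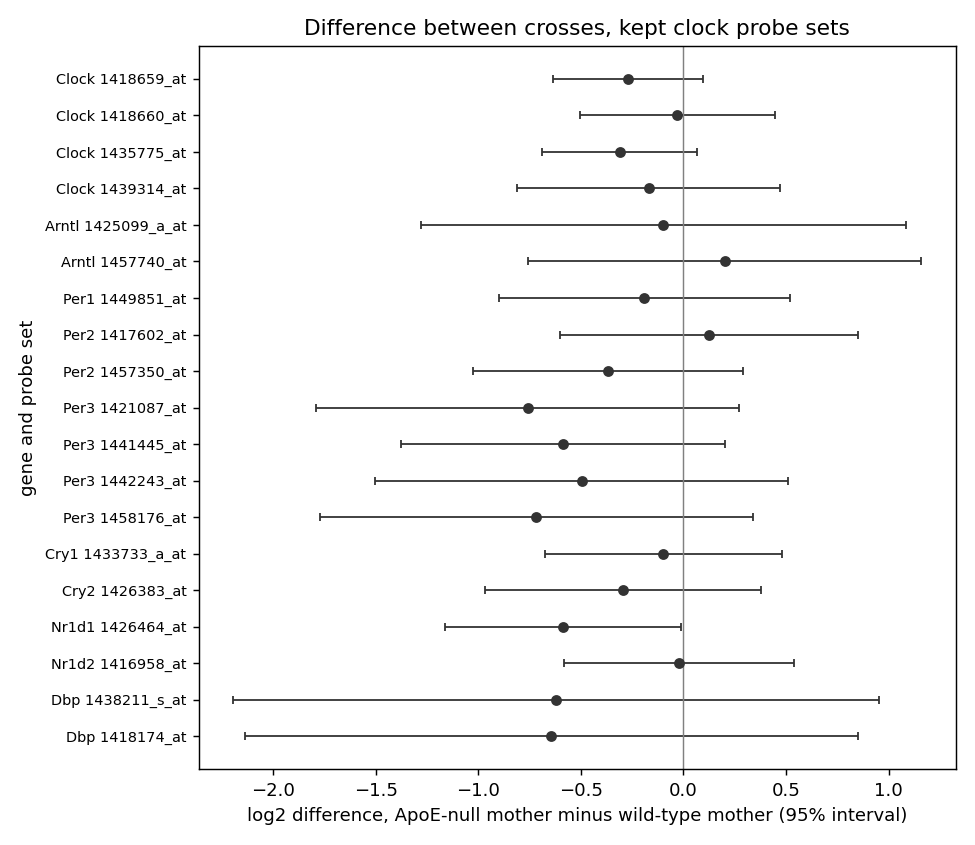
Log2 difference, ApoE-null mother minus wild-type mother (x axis), with its 95% interval for each of the 19 kept probe sets (rows, named by gene and probe set). Points left of the line at 0 have the lower mean log2 signal with an ApoE-null mother; the interval of Nr1d1 alone leaves out 0, and those of Dbp are the widest.

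The spread inside the groups was large for these genes compared with the array as a whole. After the group means were removed, the residual SD of log2 signal was 1.39 for Dbp, 1.01 for Arntl and 0.88 for Per3, against a median of 0.28 over all 27027 probe sets. Dbp was at the 99.4th percentile of all probe sets, Arntl at the 97.8th and Per3 at the 96.8th. In all, 10 of the 19 kept clock probe sets lay over the 90th percentile of residual SD, where by construction 10% of all probe sets lie. Read 1 probe set per gene, 5 of 10 did: Arntl, Per1, Per2, Per3 and Dbp. The strongest probe set of Clock was at the 27.0th percentile and that of Cry1 at the 38.5th, while the other 3 of Clock were at the 30.4th, 63.4th and 69.3rd.

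The variation had a shared order. Ranked by Arntl, the arrays ran from ApoE-null mother 3 through ApoE-null mother 1, wild-type mother 2, wild-type mother 1, ApoE-null mother 4 and wild-type mother 3 down to ApoE-null mother 2. Ranked by Dbp, they ran in exactly the reverse order (Spearman's rho = -1, exact permutation p = 0.0004 on both sides, the smallest that 7 arrays allow, and 0.0036 after Benjamini-Hochberg adjustment over the 9 relations of Arntl with other members). Pearson's r of log2 signals was -0.88 (exact permutation p = 0.0097, adjusted p = 0.0292). The exact reversal holds for the strongest probe set of each gene. The weaker Dbp probe set was highest on wild-type mother 3, ahead of ApoE-null mother 2, and the weaker Arntl probe set was highest on ApoE-null mother 1 and lowest on ApoE-null mother 4. The map of deviations shows the arrays of ApoE-null mother 1 and 3 at one end and that of ApoE-null mother 2 at the other for Arntl and Dbp, with the wild-type mother arrays in between.

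**Figure D3:**
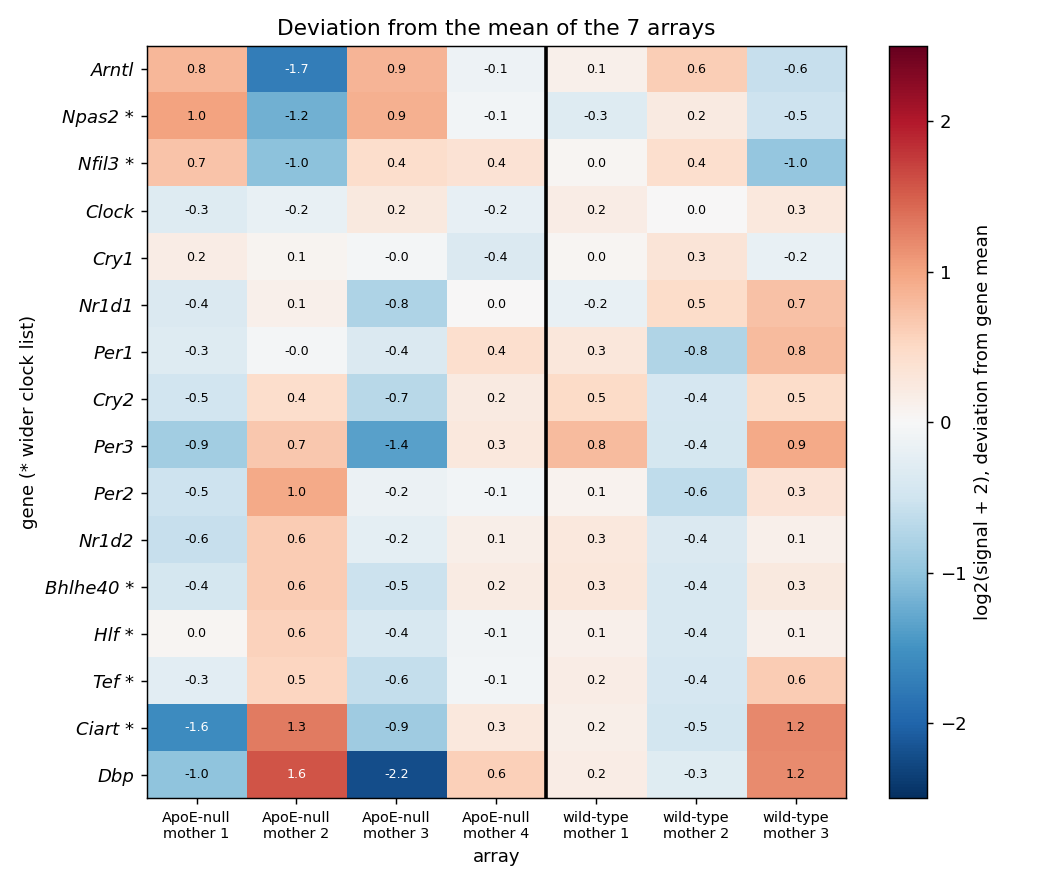
Deviation of log2(signal + 2) from the mean of the 7 arrays (colour and printed value) for the 10 clock genes and 6 genes of the wider clock list (asterisk), with ApoE-null mother arrays left of the black line and wild-type mother arrays right of it. Arntl, Npas2 and Nfil3 are high where Dbp, Ciart, Tef, Bhlhe40, Nr1d2 and the Per genes are mostly low, and the order crosses the groups.

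Per2 and Nr1d2 also ran against Arntl. Pearson's r was -0.93 for Per2 and -0.90 for Nr1d2 (exact permutation p = 0.0044 and 0.0063, adjusted p = 0.0286 for both), with Spearman's rho of -0.82 and -0.75 (adjusted p = 0.102 and 0.119). Cry2 and Per3 had r of -0.79 and -0.76, and did not pass after adjustment (exact permutation, adjusted p = 0.0670 and 0.0725). Per1 (-0.49), Nr1d1 (-0.48), Cry1 (0.27) and Clock (0.11) were weaker. Thus 3 of 9 relations passed by Pearson's r and 1 of 9, that of Dbp, by Spearman's rho.

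Because the groups hold 3 and 4 arrays, no correlation was computed inside a group. With the group means removed instead, r was -0.92 for Dbp, -0.93 for Per2, -0.90 for Nr1d2, -0.88 for Per3 and -0.85 for Cry2. Without the 2 arrays farthest from the median of Arntl (ApoE-null mother 2 and 3), r over the other 5 was -0.99 for Dbp, -0.92 for Per2, -0.83 for Nr1d2, -0.90 for Per3, -0.88 for Cry2 and -0.92 for Per1. The direction held, and 0 of the 9 passed after adjustment over 5 arrays (exact permutation, adjusted p = 0.1125 for Dbp). That of Clock turned to -0.62. Without wild-type mother 2, r was -0.89 for Dbp, -0.95 for Per2 and -0.89 for Nr1d2, with 0 passing over 6 arrays by Pearson's r (exact permutation, adjusted p = 0.0563 for Dbp). By Spearman's rho Dbp passed with each single array left out (rho = -1, exact permutation, adjusted p = 0.025). Without ApoE-null mother 1 or 2 or wild-type mother 3 the count by Pearson's r was likewise 0, with r of Dbp between -0.91 and -0.86.

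**Figure D4:**
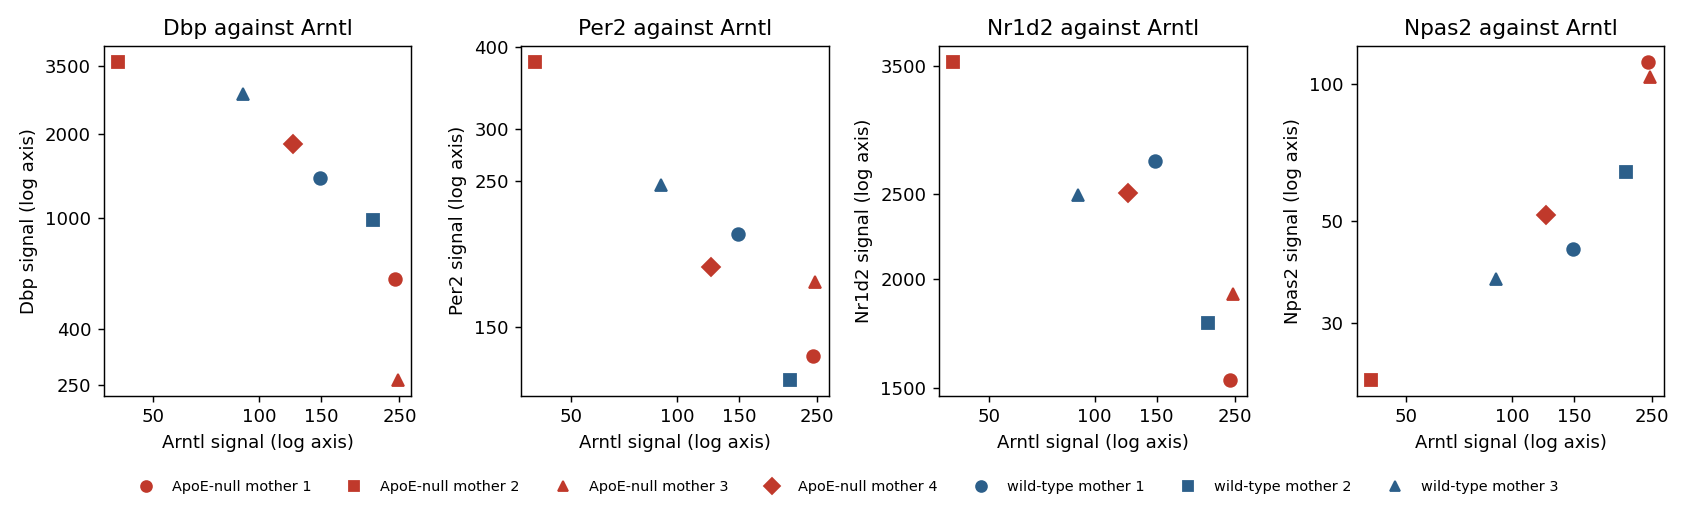
Signal of Dbp, Per2, Nr1d2 and Npas2 (y axes, log scale) against that of Arntl (x axis, log scale) on the 4 ApoE-null mother arrays (red) and the 3 wild-type mother arrays (blue), 1 point per array. Dbp is lower with every step up in Arntl (rho = -1), Per2 and Nr1d2 are lower at high Arntl, and Npas2 is higher there.

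To set these values against the array, r with Arntl was computed for all 12712 other genes, with a limit of 0.75 chosen after the values were seen. At or below -0.75 lay 1.27% of genes, against 5 of the 9 clock genes (Dbp, Per2, Nr1d2, Cry2 and Per3). These r values share the 7 arrays and the same Arntl probe set. Outside the members, the 3 genes most like Arntl among those with an established symbol over the 7 arrays were Cyp7b1 (r = 0.98), an oxysterol hydroxylase, Jun (0.96), a subunit of the transcription factor AP-1, and Cldn3 (0.96), a tight junction protein. Cyp7b1 had 69.5, 21.8, 86.0 and 53.7 with an ApoE-null mother, against 62.8, 68.9 and 41.3 with a wild-type mother, with the same arrays highest and lowest as for Arntl. Those most like Dbp were Apba3 (0.98), Mbd6 (0.97) and Tspan4 (0.97). Each was the top of a search over all genes, so a high r was certain for some.

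The wider clock list holds 36 other genes of the loop, its kinases and ubiquitin ligases, D-box factors and outputs. A probe set was found for 33, and 31 passed the filter and were tested. In limma 0 of 31 passed at an adjusted p of 0.05, against 0.0037% of all probe sets. At an unadjusted p under 0.05 there were 3 of 31, against 8.25% of all probe sets. Of the differences 17 were positive and 14 negative, with a median of 0.01. The groups did not overlap for 3 of 31, against 8.02% of all probe sets. These 3 were Pdk4, Timeless and Csnk1e, the same genes that had an unadjusted p under 0.05.

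Pdk4, a kinase that switches off pyruvate oxidation and an output of both clock and fasting, had 1745.9, 2463.4, 3340.6 and 2015.4 with an ApoE-null mother, against 1408.9, 1296.9 and 868.4 with a wild-type mother. All 4 ApoE-null mother arrays were above all 3 others, with a log2 difference of 0.99 ± 0.23 (SE; limma, adjusted p = 0.429). Summed signals of 10 fat genes lay beside it at 19727.1 to 29174.8 with an ApoE-null mother and 9512.0 to 25440.6 with a wild-type mother, with the lowest value on wild-type mother 3, as for Pdk4. Of these genes only Ucp1, the uncoupling protein of brown fat, did not overlap between the groups. It was at 3146.6 to 5059.5 with an ApoE-null mother and 420.1 to 2297.1 with a wild-type mother (log2 difference 1.88). The other fat genes overlapped, with log2 differences from -0.30 for Lep to 1.45 for Elovl3. Their part in the result was not tested. Pdk4 did not follow Arntl over the arrays (r = 0.05, exact permutation p = 0.9129).

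Timeless, the mammalian relative of a fly clock gene that acts mainly in DNA replication, averaged 79.9 ± 12.8 (SD, n = 4) in the ApoE-null mother group and 125 ± 22.9 (SD, n = 3) in the wild-type mother group. Csnk1e, a casein kinase that marks PER proteins for degradation, averaged 266 ± 24.4 (SD, n = 4) with an ApoE-null mother, against 348 ± 37.7 (SD, n = 3) with a wild-type mother. Their log2 differences were -0.63 and -0.39, without a call (limma, adjusted p = 0.523 and 0.577). Usp2 (-0.33), Nampt (0.31) and Ppp1ca (-0.22) completed the 6 with the largest test statistics, and their groups overlapped.

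Several genes of this list shared the order of the arrays. Npas2, which can take the place of CLOCK, had 111.7, 22.5, 103.4 and 51.7 with an ApoE-null mother, against 43.5, 64.2 and 37.4 with a wild-type mother, in step with Arntl. Nfil3, the D-box repressor, had 91.7, 26.1, 75.6 and 71.7 with an ApoE-null mother, against 57.1, 74.3 and 27.3 with a wild-type mother. Ciart went the other way at 15.0, 121.5, 25.2 and 58.3 with an ApoE-null mother, against 53.8, 34.5 and 113.1 with a wild-type mother. It was at its lowest on ApoE-null mother 1, where the highest bacterial probe set was 16.5. Bhlhe40, an E-box repressor also called Dec1, had 445.5, 936.1, 417.4 and 692.8 with an ApoE-null mother, against 728.8, 457.0 and 717.5 with a wild-type mother, high on the arrays where Arntl was low.

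These relations were a family of 31, computed after the data had been seen. By exact permutation 5 passed after adjustment of Pearson's r over the 31: Npas2 (r = 0.94, adjusted p = 0.0246), Bhlhe40 (-0.92, adjusted p = 0.0323), Ciart (-0.90, adjusted p = 0.0323), Nfil3 (0.90, adjusted p = 0.0323) and Dtx4 (0.89, adjusted p = 0.0431). Spearman's rho was 0.93, -0.89, -0.96, 0.93 and 0.86, and r without ApoE-null mother 2 and 3 was 0.88, -0.88, -0.96, 0.86 and 0.72. By rho only Ciart of these passed (exact permutation, adjusted p = 0.0431). The others had adjusted p of 0.0523 (Npas2 and Nfil3), 0.0636 (Bhlhe40) and 0.105 (Dtx4). Tspan4 also passed by rho (-0.96, adjusted p = 0.0431) but not by r (-0.78, adjusted p = 0.154). Tef and Hlf, the relatives of Dbp, had r of -0.86 and -0.84 without passing (exact permutation, adjusted p = 0.0554 and 0.0650). An absolute r of 0.75 was reached by 8 of 31, against 2.87% of all genes. None of the 9 tested kinase, ligase and phosphatase genes was among them. No gene of this set passed the test between the crosses, and log2 differences were 0.36 for Npas2, -0.23 for Tef and -0.07 for Bhlhe40 (limma, adjusted p = 0.858, 0.846 and 0.957).

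Marker sums were also set beside the extremes of the clock order. ApoE-null mother 2 and 3, with Dbp 13.9-fold apart, had summed smooth muscle signals of 35826.7 and 33683.9 and summed endothelial signals of 4593.7 and 5017.8. Summed thymocyte and T cell signals were 793.7 and 523.3, and summed macrophage signals 5122.7 and 4971.1. Summed fat signals were 24212.2 and 29174.8, with Ucp1 at 4614.3 and 5059.5, but Lep at 48.4 and 12.0, Pck1 at 755.0 and 1512.8 and Dio2 at 857.6 and 1617.2. The Lep signal of 12.0 was under the highest bacterial probe set of ApoE-null mother 3 (20.4). Summed immediate early signals were 10438.5 and 11469.7, with Fos at 2141.0 and 2391.0, but Jun at 664.1 and 941.1, Fosb at 70.8 and 38.1 and Egr2 at 95.9 and 185.6. Gapdh, read at its 3 prime over its 5 prime end as a guide to RNA integrity, gave ratios of 6.10 and 5.07 on these arrays. The summed nerve and Schwann cell signals were 4221.1 and 5779.2. Of the 5 measured genes of that list, Sox10 was at 12.2 and 95.8 and Mbp at 133.0 and 1173.9. The Sox10 signal of 12.2 was under the highest bacterial probe set of ApoE-null mother 2 (19.0). S100b was at 141.9 and 199.1 and Pmp22 at 3285.6 and 3806.6, while Cnp went the other way at 648.4 and 503.8. The summed ganglion and glomus signals were 1022.3 and 1622.4, and the summed erythroid signals 927.1 and 499.7. Sox10 and Mbp were at 83.0 and 1422.9 on ApoE-null mother 1 and at 5.6 and 101.4 on ApoE-null mother 4. With a wild-type mother they were at 157.5 and 1000.2 on array 1, 46.7 and 343.6 on array 2, and 265.9 and 2183.7 on array 3. The Sox10 signal of 5.6 was also under the highest bacterial probe set of its array, ApoE-null mother 4 (10.6). Summed thymocyte and T cell signals separated the crosses, at 523.3 to 882.2 with an ApoE-null mother and 156.0 to 257.6 with a wild-type mother. Of the 12 measured genes of that list, 2 exceeded the bacterial probe sets on no array. Only 2, Cd8a and Themis, exceeded them on every array. Cd8a overlapped between the groups (log2 difference -0.15) and Themis did not (1.88). The part of these marker genes in the clock genes' values was not tested.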

How the data were processed

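RNA from carotid arteries was measured on 7 one-colour Affymetrix Mouse 430 2.0 arrays (n = 4 with an ApoE-null mother and n = 3 with a wild-type mother), whose number limits the precision. The deposited values are linear MAS5 intensity. Per the submitters' processing notes the authors used MAS5 and GCOS, of unstated version. Per the labels' protocols, RNA went through 2 rounds of oligo-dT amplification, which favours 3 prime ends. The 2% trimmed mean of every array was 200.0, so the scaling was kept. Median signals per array were 36.0 to 42.1.

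Signals were transformed to log2(signal + 2), a scale on which fold changes of weak genes are understated. The 64 control probe sets and those with a mean at or below the 40th percentile (23.6) were left out, which kept 27027. limma 3.58.1 under R 4.3.3 was fitted with an intensity trend and no covariates, with p-values adjusted over all of them (Benjamini-Hochberg), a threshold of 0.05 and 95% intervals. A gene was read from its probe set with the highest mean signal. Correlations used exact permutation of all 5040 pairings, on both sides. The fit was checked on simulated data. Alternatives were another pseudocount, no filter, quantile and median scaling, no trend and leaving out each array. The named genes were all member probe sets, the 6 wider clock genes with the largest statistic, Npas2, Tef and Bhlhe40, and the 3 genes most like Arntl and Dbp. Nfil3, Ciart, Dtx4 and Hlf were named after their values were seen. Members and lists were chosen with earlier results of these data known.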

Additional observations from a re-analysis of the deposited data

How the results depend on the processing

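No clock probe set and no gene of the wider clock list was called under any alternative tried (0 in limma for each, with 0 to 4 of 19 and 2 to 5 of 31 at an unadjusted p under 0.05, against 5.48% to 9.62% of all probe sets). The 4 of 19 came without ApoE-null mother 2, where 5.57% of all probe sets passed, and 3 of 19 without wild-type mother 2, where 9.38% did. Over all probe sets 1 was called, 2 with quantile normalization, 0 without an intensity trend, and 0 to 18 when single arrays were left out (18 without wild-type mother 1, 4 without wild-type mother 3, 0 without any ApoE-null mother array). No scaling moved the median log2 difference of all probe sets by over 0.1. Signs turned when single arrays were left out, with log2 differences of -0.13 to 0.15 for Clock 1418660_at, -0.42 to 0.46 and -0.13 to 0.45 for the stronger and weaker probe set of Arntl, -0.62 to 0.15 for Per1, -0.18 to 0.33 for Per2 1417602_at, -0.22 to 0.032 for Cry1, -0.24 to 0.17 for Nr1d2, -1.23 to 0.028 for Dbp 1438211_s_at, -0.30 to 0.091 for Bhlhe40 and -0.51 to 0.017 for Tef. Those of Per3 and Nr1d1 stayed negative, at -1.19 to -0.41 and -0.85 to -0.39. So did those of Cry2 (-0.59 to -0.11) and Dbp 1418174_at (-1.20 to -0.079), while that of Npas2 stayed positive (0.075 to 0.81). The mean of all probe sets of a gene in place of the strongest gave 1 positive gene of 10, but another one: Arntl was at 0.05 in place of -0.10 and Per2 at -0.018 in place of 0.12. This mean takes in the 4 probe sets under the filter, such as that of Per2 with signals of 1.1 to 8.7.

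Of the 9 correlations with Arntl, 3 passed with all arrays, 4 with quantile normalization, 0 without the 2 arrays farthest from the median of Arntl, and 0 to 4 when single arrays were left out, where fewer arrays raise the smallest possible p. By Spearman's rho, Dbp passed without any single array (rho = -1, exact permutation, adjusted p = 0.025). The correlation of Clock with Arntl was -0.62 without those 2 arrays and -0.30 to 0.45 without single arrays. No paired analysis was possible because the replicate numbers were given in accession order and only name the arrays. Signal near background left 4 probe sets untested.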

Other observations

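Per1 had its highest and lowest signals in the wild-type mother group, at 396.4 on wild-type mother 3 and 134.5 on wild-type mother 2. Zbtb16, Tsc22d3 and Fkbp5, genes known to be induced by glucocorticoids, were at their highest and lowest on the same arrays, a choice made after the values were seen. Zbtb16 had 1616.5 and 185.7, Tsc22d3 had 623.1 and 143.9, and Fkbp5 had 431.8 and 152.7. Of the other genes in that list of 11, Klf9, Cebpd and Sgk1 had their extremes on the same arrays, while the other 5 did not. Mt1, Mt2 and Lcn2 were highest on ApoE-null mother 1, Pdk4 on ApoE-null mother 3 and Errfi1 on wild-type mother 1. Pdk4 (868.4) and Lcn2 (5.6) were at their lowest on wild-type mother 3, where Per1 was highest. The share of all probe sets highest on wild-type mother 3 and lowest on wild-type mother 2 was not computed. Wild-type mother 2 is also the array with a Xist signal of 41.2 and the highest skeletal muscle signals, and the part of either in these values was not tested.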
